A study of Mus musculus with 2 samples.

Results

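The genes described are the 4 MiT/TFE transcription factors, Mitf, Tfeb, Tfe3 and Tfec, together with 5 genes of the melanosome, Tyrp1, Pmel, Gpnmb, Dct and Tyr. These 9 genes are among 22093 usable genes, and they were picked by name with their expression values already known, so the comparisons of their levels are descriptions. Of these, 6 stood in the deposited tables under these symbols, and 3 were listed under the older symbols Tcfeb, Tcfe3 and Tcfec and were matched through the RefSeq synonym list. RNA sequencing was done on sciatic nerves of mice of mixed strain at postnatal day 7, with 1 library from control and 1 from Tsc1cKO animals. Tsc1cKO is read here as conditional loss of Tsc1, a subunit of the complex that restrains the kinase complex mTORC1. The names of the deposited tables add a Dhh-Cre term for both groups and, read literally, 1 conditional copy of Tsc1 in control against both copies in Tsc1cKO, which the sample labels themselves do not state. Dhh-Cre is active in Schwann cell precursors and their descendants, so whole nerve also holds cells it does not reach. How many animals stand behind a library is not given in the sources used here.

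The MiT/TFE factors are basic helix-loop-helix leucine zipper proteins that bind E-box sequences as dimers. Active mTORC1 phosphorylates Tfeb and Tfe3 at the lysosome and holds them in the cytoplasm, and when they enter the nucleus they drive lysosome and autophagy genes. Mitf is the master factor of melanocytes, where it binds the M-box, an E-box with flanking letters, in the promoters of pigment genes. Melanocytes and Schwann cells both descend from the neural crest. RNA levels record none of the phosphorylation or localisation of these proteins.

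Values are FPKM, fragment numbers divided by the length of the transcript and by the size of the library, so levels can be set side by side between genes. Differences are Tsc1cKO minus control of log2(FPKM + 1), which understates changes of low genes. With 1 library per group no difference has a replicate check and no test was possible, and "higher" and "lower" refer to these libraries. A gene was called measured at 1 FPKM or more in 1 library or both. Among 12409 measured genes, 5.03% were at least 2-fold higher on this scale in Tsc1cKO and 3.06% at least 2-fold lower, with a median difference of 0.20 and 67.0% of genes higher by any amount. When Tsc1cKO was divided by 1.18, the median ratio of 7844 well expressed genes, these shares were 2.86% and 4.65%, with 49.4% higher by any amount, and such values are called centred. In bulk nerve, fewer cells of a type and less RNA per cell cannot be told apart. Tsc1 was at 3.76 FPKM in control and 2.28 FPKM in Tsc1cKO over the whole gene, which does not isolate the deleted part. Schwann cell markers were present in both libraries, with Sox10 at 212 and 246 FPKM and S100b at 169 and 167 FPKM (control first, here and in all pairs that follow).

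Of the melanosomal genes, 4 were far higher in Tsc1cKO and 1, Tyr, was near the floor in both libraries, while none of the factors differed by 2-fold. Among all 9 genes, 7 were measured and 4 were at least 2-fold higher, beside 5.03% of all measured genes, a count that follows from how the genes were picked. Tyrp1, Gpnmb and Dct were measured only through their Tsc1cKO value.

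**Figure D1:**
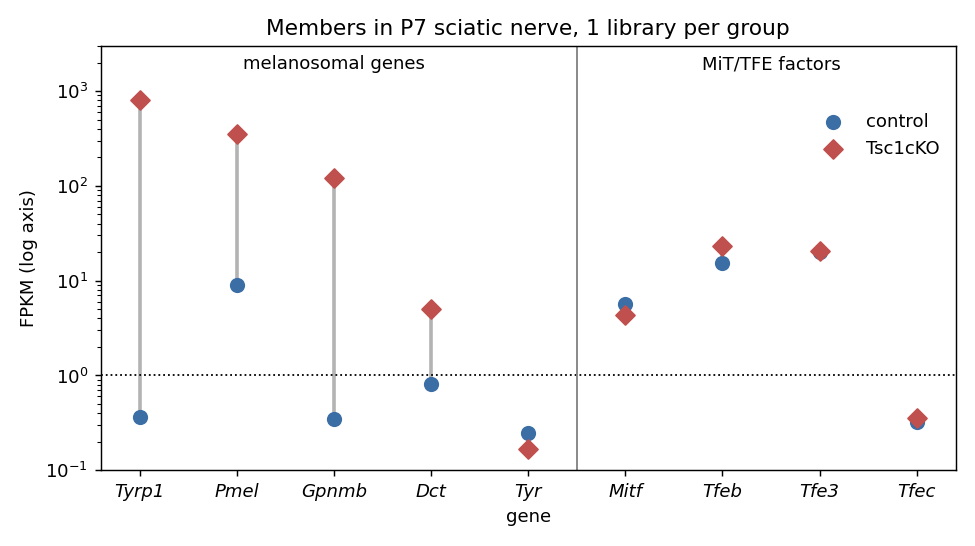
FPKM of each gene on a log axis, with control as circles and Tsc1cKO as diamonds, 1 library each, and a dotted line at 1 FPKM. Tyrp1 spans 0.361 to 802 FPKM, whereas the symbols of Tyr and of the 4 factors lie close together.

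Tyrp1, which encodes a tyrosinase-related enzyme of the melanosome membrane, was at 0.361 FPKM in control and 802 FPKM in Tsc1cKO, a ratio of 2221 (chromosome 4, 80480134 to 80497622, mm9). Its difference of 9.20 was the highest of all measured genes, and it moved from position 13265 to position 94 in the order of levels among 22093 genes. In Tsc1cKO it held 0.165% of the FPKM sum.

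Gpnmb encodes a transmembrane glycoprotein of melanosomes and lysosomes that is related to Pmel and is also made by macrophages and osteoclasts. It was at 0.347 FPKM in control and 122 FPKM in Tsc1cKO, a ratio of 352 (chromosome 6, 48986517 to 49008181, mm9). Its difference of 6.51 was second among measured genes.

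Pmel encodes the protein that forms the amyloid fibrils on which melanin is laid down. It was at 8.95 FPKM in control and 354 FPKM in Tsc1cKO, a ratio of 39.6 (chromosome 10, 128143314 to 128157294, mm9). Unlike the other melanosomal genes it was clearly present in control, where it stood at 6135 in the order of levels. Its span shares 103 bases with that of Dgka, so the assignment of fragments there is uncertain. Dgka itself was at 13.2 and 15.1 FPKM, far below Pmel in Tsc1cKO.

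Dct encodes dopachrome tautomerase, the enzyme that acts after tyrosinase in making eumelanin. It was at 0.818 FPKM in control and 4.98 FPKM in Tsc1cKO, a ratio of 6.09 (chromosome 14, 118412012 to 118451468, mm9). Its difference was 1.72 with a pseudocount of 1 but 0.78, under 2-fold, with a pseudocount of 5.

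Tyr encodes tyrosinase, the rate-limiting enzyme of melanin synthesis. It was at 0.248 FPKM in control and 0.168 FPKM in Tsc1cKO, below 1 FPKM in both (chromosome 7, 94575915 to 94641921, mm9). The enzyme genes thus separated within Tsc1cKO nerve, where the ratio of Tyrp1 to Tyr was 4765, against 1.45 in control. The ratio of Tyrp1 to Dct was 161 in Tsc1cKO and 0.442 in control. The 5 melanosomal genes together summed to 10.7 FPKM in control and 1283 FPKM in Tsc1cKO, of which Tyrp1 gave the most.

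The promoters of these genes are shown because 3 of them carry the core of the M-box and yet their levels differ so widely. The windows run from 250 bases before to 50 bases after the annotated start, from RefSeq on GRCm38.p6, another build than that of the expression tables, and capitals mark TCATGTG or its reverse complement CACATGA. They lie at chr4:80833963-80834262 on the plus strand for Tyrp1, chr14:118052197-118052496 on the minus strand for Dct, chr7:87493463-87493762 on the minus strand for Tyr and chr6:49036268-49036567 on the plus strand for Gpnmb.
Tyrp1: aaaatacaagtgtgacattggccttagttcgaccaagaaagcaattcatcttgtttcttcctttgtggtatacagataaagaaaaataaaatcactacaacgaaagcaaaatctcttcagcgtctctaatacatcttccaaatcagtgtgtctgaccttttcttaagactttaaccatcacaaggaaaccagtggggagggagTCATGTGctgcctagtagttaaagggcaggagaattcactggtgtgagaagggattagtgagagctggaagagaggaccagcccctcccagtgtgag
Dct: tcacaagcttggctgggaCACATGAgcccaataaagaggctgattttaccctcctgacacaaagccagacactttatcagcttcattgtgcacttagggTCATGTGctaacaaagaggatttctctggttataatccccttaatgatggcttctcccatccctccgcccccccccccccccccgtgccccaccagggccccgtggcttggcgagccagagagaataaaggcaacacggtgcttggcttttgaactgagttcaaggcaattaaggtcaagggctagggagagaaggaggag
Tyr: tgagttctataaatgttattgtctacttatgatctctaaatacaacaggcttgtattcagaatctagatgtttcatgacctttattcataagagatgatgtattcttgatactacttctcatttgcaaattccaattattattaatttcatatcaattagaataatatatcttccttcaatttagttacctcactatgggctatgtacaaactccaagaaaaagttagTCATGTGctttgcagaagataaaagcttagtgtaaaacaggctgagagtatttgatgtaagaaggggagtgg
Gpnmb: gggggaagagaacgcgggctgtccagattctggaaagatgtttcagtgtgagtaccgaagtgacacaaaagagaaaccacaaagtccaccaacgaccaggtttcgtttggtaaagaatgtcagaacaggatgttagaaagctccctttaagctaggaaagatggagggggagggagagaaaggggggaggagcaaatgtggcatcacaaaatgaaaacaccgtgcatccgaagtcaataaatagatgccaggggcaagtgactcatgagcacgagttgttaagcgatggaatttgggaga

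In the Tyrp1 window the core began at position −47 from the start, and in the Tyr window at position −22. With 2 letters on either side both read AGTCATGTGCT, a run of letters found in 7 of 32851 promoter windows on either strand (0.0213%). The 7-letter core alone was found in 1239 windows (3.77%). Dct had the core at position −151, as ggTCATGTGct, and a further one on the opposite strand at position −232. Tyrp1 and Tyr therefore share these letters while Tyrp1 was at 802 FPKM and Tyr at 0.168 FPKM in the same library. The Gpnmb window held no match to TCATGTG, nor to TCACGTG, the core of the CLEAR element bound by Tfeb, nor to the shorter CATGTG and CACGTG that lie within them. None of the windows of Mitf, Tfeb, Tfe3 and Tfec, 3, 3, 2 and 1 in number, held any of these letters. No window for Pmel was used.

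The factors themselves differed little between the libraries. Tfe3 was the highest in control, at 19.8 FPKM, and was at 20.5 FPKM in Tsc1cKO (chromosome X, 7339787 to 7352328, mm9). Tfeb was at 15.3 FPKM in control and 23.2 FPKM in Tsc1cKO, a ratio of 1.52 and the highest of the 4 in Tsc1cKO (chromosome 17, 47873986 to 47929365, mm9). The difference of Tfeb was 0.57, and 0.35 when centred.

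Mitf was at 5.72 FPKM in control and 4.38 FPKM in Tsc1cKO, so it was 1.31-fold lower where Tyrp1, Gpnmb and Pmel were higher (chromosome 6, 97757052 to 97971352, mm9). Its difference was −0.32, and −0.51 when centred. Mitf has several promoters that give isoforms for different cell types, including a melanocyte form, and the deposited value covers all of them. Tfec, which is known mainly from macrophages, was at 0.324 and 0.357 FPKM, under 1 FPKM in both libraries (chromosome 6, 16783381 to 16848441, mm9).

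The order of the factors was Tfe3, Tfeb, Mitf, Tfec in control and Tfeb, Tfe3, Mitf, Tfec in Tsc1cKO. Tfe3 and Tfeb differed by a ratio of 1.30 in control and 0.884 in Tsc1cKO, and without replicates that change of order cannot be set against error. Tfe3 turned from slightly higher, 0.05, to slightly lower, −0.18, when centred. The summed level of the 4 factors was 41.2 and 48.5 FPKM.

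**Figure D2:**
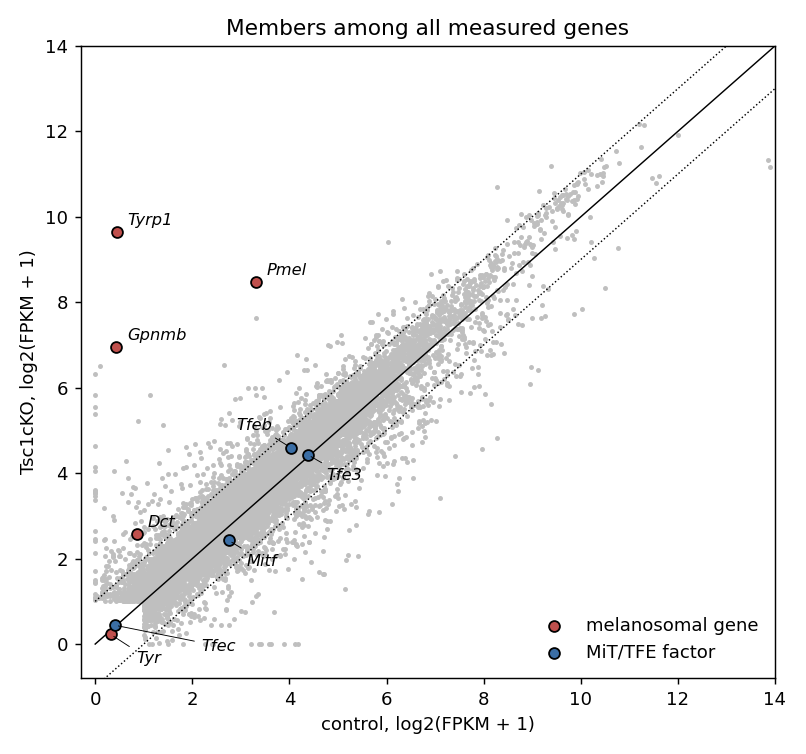
Level of each measured gene in control (x) and Tsc1cKO (y) as log2(FPKM + 1), grey, with the named genes on top, including Tyr and Tfec below 1 FPKM. The solid line marks equal levels and the dotted lines 2-fold; Tyrp1, Gpnmb and Pmel lie far above the upper line and all 4 factors lie between the lines.

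Most other genes of pigment cells were below 1 FPKM in both libraries, some of them listed at 0. In a list of 12 such genes, 2 were measured. Mlana, which encodes the melanocyte antigen that binds Pmel, and Slc45a2, which encodes a melanosomal transporter, were listed at 0 in both libraries. Oca2 and Trpm1 lay under 0.05 FPKM in both libraries, as did Gpr143, Tspan10 and Mc1r, which encodes the melanocortin receptor. Slc24a5, which encodes a melanosomal exchanger, was at 0.503 and 0.555 FPKM, and Rab27a, which tethers melanosomes to the transport complex, at 0.429 and 0.490 FPKM. Mlph, the adaptor of that complex, was at 0.147 and 0.919 FPKM, below 1 FPKM in both. Rab38, a small GTPase that sorts Tyr and Tyrp1 into melanosomes, was at 10.2 and 24.4 FPKM. This is a difference of 1.18, or 0.95 when centred. Cited1, which encodes a transcriptional co-regulator, was lower, at 1.23 and 0.354 FPKM.

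Markers of cells that could bring such transcripts into a nerve sample were compared as well. The 12 pigment cell genes summed to 12.5 FPKM in control and 26.8 FPKM in Tsc1cKO, of which Rab38 alone gave 10.2 and 24.4 FPKM. Of 7 keratinocyte markers, which would accompany skin, only Krt10 reached 1 FPKM, at 2.33 and 2.98 FPKM, and Krt5 and Krt14 were at 0 in control and under 0.05 FPKM in Tsc1cKO. Their sum was 2.55 and 3.48 FPKM. The 15 macrophage markers were all measured, with none past 2-fold and 12 higher (9 when centred), and summed to 413 and 541 FPKM. Of all measured genes 67.0% were higher (49.4% when centred). The largest macrophage difference was that of Aif1, a calcium-binding protein gene, at 6.15 and 12.2 FPKM, a ratio of 1.99. C1qa, C1qb and C1qc, which encode the chains of complement C1q, were at 59.6 and 92.0 FPKM, at 54.6 and 79.7 FPKM and at 75.1 and 116 FPKM. Tyrobp, an adaptor of myeloid receptors, was at 50.5 and 77.2 FPKM. Csf1r, the receptor that macrophages depend on, was at 32.4 and 34.96 FPKM, and Cd68, a macrophage lysosomal protein, was at 8.81 and 8.04 FPKM. Of 7 osteoclast markers 3 were measured. Among these Acp5 was at 8.67 and 8.74 FPKM, Ctsk at 51.8 and 43.7 FPKM, and Atp6v0d2 was higher, at 0.151 and 1.58 FPKM. Calcr and Dcstamp were at or close to 0 in both libraries. The osteoclast markers summed to 60.8 and 54.1 FPKM. What part these cells had in the values of Gpnmb was not tested.

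Genes of the melanocyte lineage were in part well expressed and in part listed at or near 0. Of 15 listed genes 10 were measured, 8 of them higher (7 when centred) beside 67.0% of all measured genes (49.4% when centred). At least 2-fold higher were 4 (also 4 when centred), beside 5.03% of all measured genes (2.86% when centred). The median difference was 0.59 against 0.20 for all measured genes, and 0.41 against −0.01 when centred. Met, which encodes the receptor of hepatocyte growth factor, was at 3.27 and 14.4 FPKM. Ednrb, the endothelin receptor needed by melanoblasts and present in glia, was at 62.2 and 193 FPKM. Sox5, which modulates Sox10 in melanocytes, was at 1.69 and 6.25 FPKM and Foxd3, a neural crest factor that holds back Mitf and the melanocyte fate, at 53.9 and 144 FPKM. Kitl, which encodes the ligand of Kit, was at 5.36 and 10.6 FPKM. The 2 measured genes of the list that were lower without centring were Sox9, at 6.81 and 3.97 FPKM, and Edn3, at 1.52 and 1.33 FPKM. The difference of Sox9 was −0.65, and −0.84 when centred. Pax3, which acts with Sox10 on the Mitf promoter, was listed at 0 in both libraries, and Kit, the melanoblast receptor, was at 1.21 and 1.74 FPKM. Foxd3 and Sox10 are also Schwann cell genes.

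The machinery that builds and moves melanosomes is shared with other lysosome-related organelles and was expressed in both libraries. Of 26 genes 25 were measured, 20 of them higher (14 when centred) beside 67.0% of all measured genes (49.4% when centred), with a median of 0.25 that was 0.03 when centred. At least 2-fold higher were 3 genes and at least 2-fold lower was 1, beside 5.03% and 3.06% of all measured genes. When centred these were 2 and 1, beside 2.86% and 4.65%. Cd63, which encodes a tetraspanin that sorts Pmel in endosomes, was at 309 and 1667 FPKM, reaching position 32 in the order of levels in Tsc1cKO. Tpcn2, a cation channel of lysosomes and melanosomes, was at 3.28 and 9.11 FPKM. Hps6, a subunit of the BLOC-2 sorting complex, was at 2.94 and 7.12 FPKM. Its difference was 1.04, or 0.84 when centred. Cno, a further gene of the list, was at 7.53 and 12.9 FPKM. Bace2, which encodes the protease that cleaves Pmel so that fibrils can form, was lower, at 27.5 and 12.7 FPKM.

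Genes known as Mitf targets outside pigment synthesis went both ways past 2-fold. Of 20 listed, 15 were measured, 13 of them higher (11 when centred) beside 67.0% of all measured genes (49.4% when centred). Their median was 0.54, and 0.32 when centred. Past 2-fold higher were 2 and past 2-fold lower was 1, beside 5.03% and 3.06% of all measured genes. When centred these were also 2 and 1, beside 2.86% and 4.65%. Cdk2, a kinase of the cell cycle that MITF controls in human melanoma cells, was at 10.3 and 30.6 FPKM, and Met, already described, was the other. Tbx2, a repressor active in melanoblasts, was at 21.4 and 38.7 FPKM, and Cdkn2a, which encodes cell cycle inhibitors, at 3.04 and 5.96 FPKM. Cdkn1a, which encodes the inhibitor p21, was lower at 185 and 59.1 FPKM.

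The genes through which mTORC1 is coupled to Tfeb and Tfe3 were mostly higher. Of 11 genes for Rag GTPases, folliculin and its partners, the calcium channel Mcoln1 and calcineurin, 10 were measured. Of these, 9 were higher (8 when centred) beside 67.0% of all measured genes (49.4% when centred). Their median was 0.51, and 0.28 when centred. With a pseudocount of 1 only 1 was past 2-fold higher (also 1 when centred), beside 5.03% of all measured genes (2.86% when centred). With a pseudocount of 0.1 there were 4, beside 928 of the 12409 measured genes. The 1 gene at a pseudocount of 1 was Rragd, a Rag GTPase gene that MiT/TFE factors are known to induce, at 1.17 and 4.46 FPKM. Flcn, which encodes folliculin, the activator that lets the Rag GTPases present Tfeb to mTORC1, was at 10.4 and 21.5 FPKM. Its partners Fnip1 and Fnip2 were at 3.36 and 6.89 FPKM and at 3.60 and 7.49 FPKM. The plain FPKM ratios of Flcn, Fnip1 and Fnip2 were 2.06, 2.05 and 2.08. With the pseudocount of 1 their differences were 0.98, 0.85 and 0.88, under 2-fold, and 0.75, 0.65 and 0.68 when centred. How many of all genes pass that plain ratio was not counted. Rraga, the highest of the list, was at 39.7 and 50.2 FPKM. Ppp3ca, a calcineurin subunit, was at 26.5 and 41.7 FPKM.

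All 41 listed genes of the CLEAR network of lysosome and autophagy, the classic targets of Tfeb and Tfe3, were measured. Like the other lists, this one was chosen with earlier results of these data known. Of 41 genes 38 were higher (34 when centred), beside 67.0% of all measured genes (49.4% when centred). At least 2-fold higher were 8 (5 when centred), beside 5.03% of all measured genes (2.86% when centred), and none was 2-fold lower, with a median of 0.61 that was 0.37 when centred. Besides Cd63 these included the gene of a lysosomal hexosaminidase chain, Hexa, at 56.1 and 135 FPKM. Gla, which encodes alpha-galactosidase, was at 2.53 and 7.20 FPKM. The differences in this list therefore did not exceed 2.43, the value of Cd63, whereas Pmel, Gpnmb and Tyrp1 had differences of 5.16, 6.51 and 9.20.

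**Figure D3:**
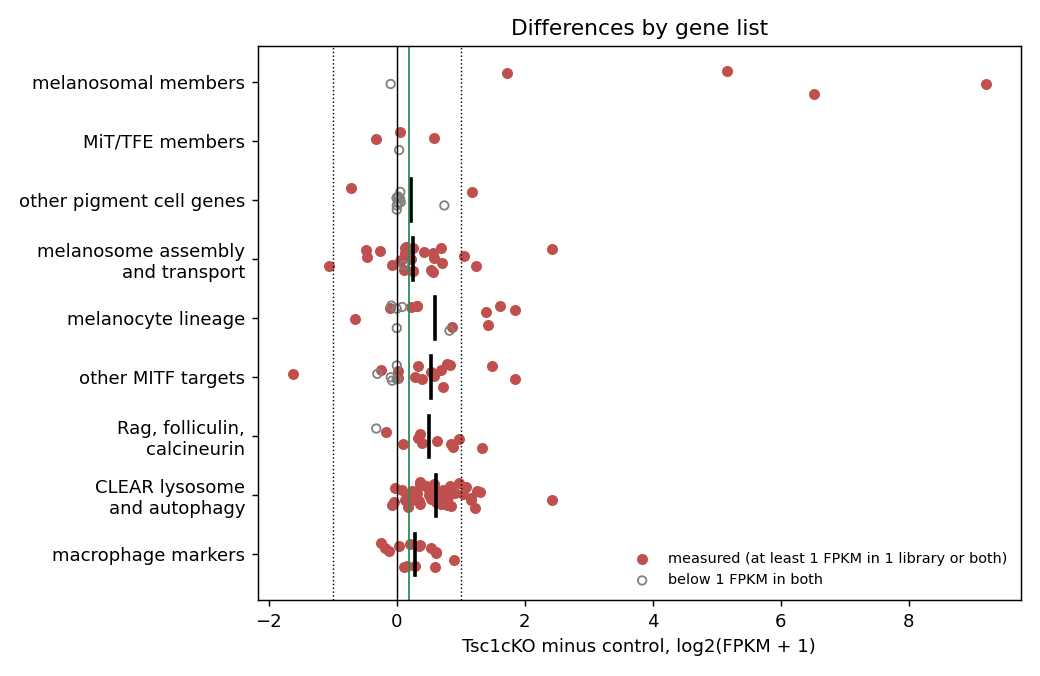
Difference of each gene, Tsc1cKO minus control of log2(FPKM + 1), by list, with filled points for measured genes, open points for genes below 1 FPKM in both libraries, black bars at list medians (not drawn for the 9 named genes) and a green line at the median of all measured genes, 0.20. Dotted lines mark 2-fold; Tyrp1, Gpnmb and Pmel lie beyond every point of the other lists.

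Neighbouring genes were examined to see whether whole regions differed. The 3 nearest genes on either side of each of the 9 genes, leaving out predicted genes and small RNAs, made 54 genes, of which 39 were measured, 5 were at least 2-fold higher and 1 at least 2-fold lower. These are 12.8% and 2.56% of the measured neighbours, beside 5.03% and 3.06% of all measured genes, without centring. When centred, Nox4 and Rab38 fell under 2-fold, at 0.99 and 0.95. Cav1, 408 kb after Tfec, then passed 2-fold as lower, at −1.05. Neighbours are named for their position, after their values were seen. Beside Tyrp1, D4Bwg0951e, 58.97 kb after it, was at 6.10 and 36.99 FPKM, and the next gene, Mpdz, had a difference of −0.76. Frmd3, on the other side of Tyrp1 and 6632 kb away, was at 54.6 and 14.6 FPKM. Even the nearest gene on that side, Ptprd, lay 4240 kb away. Beside Pmel, Cdk2, whose end lies 1.21 kb from it, was higher, and Rab5b, the next gene, was at 43.8 and 43.3 FPKM. None of the 3 measured neighbours of Gpnmb passed 2-fold, with Igf2bp3, the closest of them, at 1.08 and 1.33 FPKM. Beside Dct, Gpc6 was at 10.6 and 5.77 FPKM and Tgds at 4.15 and 5.17 FPKM. Beside Tyr, Nox4 was at 0.630 and 2.62 FPKM and Rab38, already described and 937 kb away, also lay among the 6 neighbours. Tes, the first gene after Tfec at 167 kb, was the remaining 2-fold higher neighbour, at 1.33 and 5.45 FPKM.

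**Figure D4:**
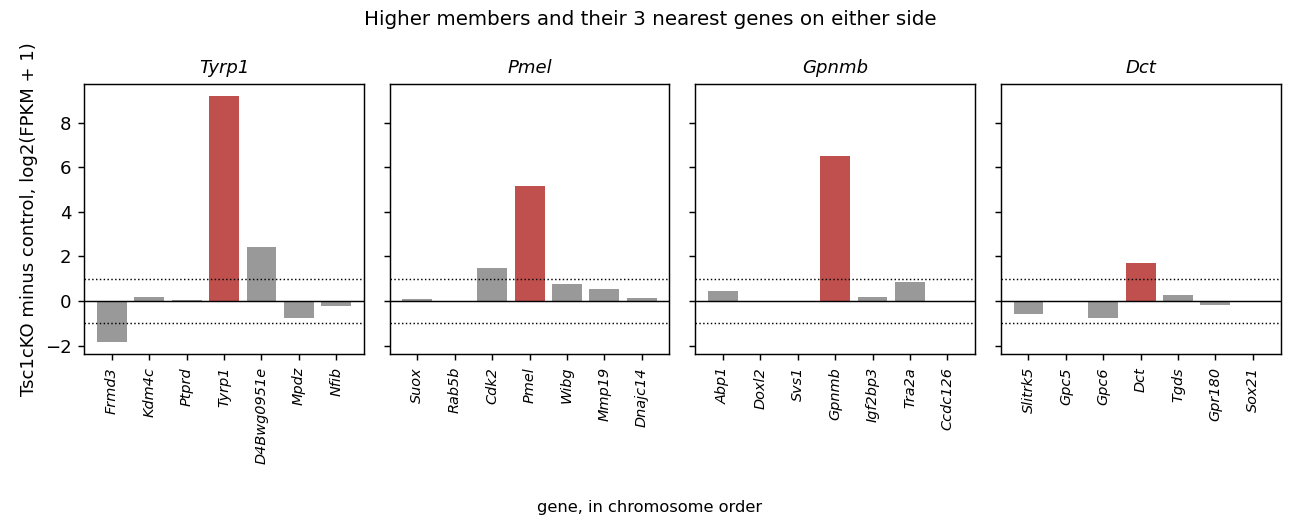
Difference of Tyrp1, Pmel, Gpnmb and Dct (red bars) and of their 3 nearest non-overlapping genes on either side (grey bars), Tsc1cKO minus control of log2(FPKM + 1), in chromosome order and not to distance. Beside the bars of 9.20, 5.16, 6.51 and 1.72, the neighbours past 2-fold are D4Bwg0951e and Cdk2 (higher) and Frmd3 (lower).

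With 1 library per group, likeness of pattern reduces to a like difference. Counting genes that were above 0 in both libraries and reached 5 FPKM in either, without small RNAs and predicted genes, Tyrp1, Gpnmb and Pmel took positions 1 to 3, whereas Pmel was at position 8 among all measured genes. Then came Syt4, Ucn2, Lgals3 and Cxcl14, with differences from 4.71 to 3.86. The first of these, Syt4, a synaptotagmin gene, was at 1.17 and 55.9 FPKM, and Lgals3, which encodes galectin-3, was at 8.86 and 199 FPKM.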

How the data were processed

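Whole-nerve RNA from 1 control and 1 Tsc1cKO library, grouped by the labelled genotype, was analysed. The deposited values are FPKM per gene with a status, per the file headers. The submitters' processing notes name CASAVA, TopHat, Cufflinks and mm9 and give neither versions nor roles. The annotation is not given in the sources used here, and no use of strand is stated.

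Each table held 22532 entries. Entries sharing a symbol were summed (227 symbols), and 3 symbols with a failed status in control were left out. FPKM are not counts, and depth was not stated. Among 429 control genes with 1 coding transcript and less than 0.2 FPKM, the commonest product of FPKM and transcript length was 0.035 FPKM × kb. If that is the worth of 1 fragment, the control value of Tyrp1 over its longest transcript of 2720 bases is about 28.1 fragments. On the same scale Tyr, over its longest transcript of 6042 bases, is about 42.9 fragments in control. With the same product in Tsc1cKO it is about 29.1 fragments there. Transcript lengths came from GENCODE M21 on another build. No interval was computed.

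Differences used a pseudocount of 1, and genes were counted past 2-fold. Genes named were the 9, those overlapping or next to them, Tsc1, and per list up to 5 measured genes with the largest absolute difference, the one with the highest level and any cell type marker. Some lower-ranked or absent list genes, such as Pax3, Kit and the other pigment cell genes, are named for their low values, after these were seen. Sox9 and Edn3 are named as the measured lineage genes that were lower, also after their values were seen. A few genes named by it are not reported here. The members and all 12 lists (172 entries) were chosen with earlier results of these data known. The calculation was run on simulated data, made from the control values by a constant factor, with some genes of at least 5 FPKM raised. These data held no noise and no changed genes near the floor, so the run checks the arithmetic only. Python 3.11.15, pandas 2.3.3 and numpy 2.4.6 were used. Alternatives were pseudocounts, filters, scalings, thresholds and symbols on several entries.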

Additional observations from a re-analysis of the deposited data

How the results depend on the processing

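No paired analysis was possible because each group has 1 library. With no replicates, a difference was counted as moved when it crossed the 2-fold limit or shifted by over 1.5-fold, and no cause of a move was tested. Of the 9 genes, the differences of Tyrp1, Gpnmb and Dct became 10.76, 8.10 and 2.47 with a pseudocount of 0.1 and 7.23, 4.57 and 0.78 with 5. No called difference changed sign under the pseudocounts, filters, scalings and thresholds run. With a minimum of 5 FPKM, Dct, Tyr and Tfec gave no value. Counts of all measured genes past the limit, 624 higher and 380 lower, became 283 and 221 with a pseudocount of 5, 355 and 577 with median scaling, 2211 and 934 at 1.5-fold and 173 and 134 at 3-fold, and the higher count became 391 with upper quartile scaling and 366 with trimmed mean scaling. Pigment cell genes past the limit numbered 1, and 0 with a pseudocount of 5, median or trimmed mean scaling, or 3-fold. Melanosome machinery genes numbered 3, and 1 with a pseudocount of 5, 5 at 1.5-fold and 1 at 3-fold. Lineage genes numbered 4, and 2 at 3-fold. Other Mitf targets numbered 2, and 7 at 1.5-fold and 1 at 3-fold. Rag and folliculin genes numbered 1, and 4 with a pseudocount of 0.1, where 928 of all measured genes were higher past the limit. They numbered 0 with a pseudocount of 5, 0 with a minimum of 5 FPKM, 5 at 1.5-fold and 0 at 3-fold. CLEAR genes numbered 8, and 5 under each of the 3 scalings, 22 at 1.5-fold and 1 at 3-fold. Depth limits the genes below 1 FPKM, where a value of 0 means only that none was listed.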

Other observations

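The M-box core was looked for in the promoter windows of all genes, as a description with no test. Of 254 measured genes with TCATGTG in a window on either strand, 23 had Tsc1cKO values at least 2-fold higher (9.06%) and 7 at least 2-fold lower, with a median difference of 0.24. Of all 9784 measured genes with a window, 455 were higher (4.65%) and 277 lower, with a median of 0.20. The 23 include Tyrp1 and Dct, which were picked with their values known and were measured only through Tsc1cKO. Tyr, Slc24a5, Trpm1, Tspan10 and Mc1r also hold the core in a window. They were below 1 FPKM in both libraries, so they are in none of these counts. Of 684 measured genes with the CLEAR core TCACGTG, 28 were at least 2-fold higher (4.09%) and 10 at least 2-fold lower, with a median of 0.26. The shorter CATGTG was in a window of 978 measured genes, of which 50 were at least 2-fold higher (5.11%) and 34 at least 2-fold lower. For CACGTG these numbers were 52 (4.51%) and 26 of 1153 measured genes. The shares for TCATGTG and CATGTG, 9.06% and 5.11%, were not centred, and what sets them apart was not tested. Besides Tyrp1, the only measured gene whose window held AGTCATGTGCT was C1qb, a complement gene of macrophages, at 54.6 and 79.7 FPKM.

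Tfap2a, a neural crest factor that works with Mitf in melanocytes and stands in the files as Tcfap2a, was at 0.0759 and 0.904 FPKM. It was below 1 FPKM in both libraries, so it is in none of the counts, and it is named here after its values were seen.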
